A study of Homo sapiens with 16 samples.

Results

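RNA levels of the nuclear factor of activated T cells (NFAT) family and of the regulators of calcineurin were followed across 6 lines of SW480, a human cell line that was established from a colon adenocarcinoma. The genes were the 9 of 66023 counted genes whose GENCODE symbol was NFATC1, NFATC2, NFATC3, NFATC4, NFAT5, RCAN1, PPP3CA, PPP3CB or DYRK1A. Parental cells (n = 2) carried no construct, whereas the other 5 lines were transduced with lentivirus and kept as stable lines under puromycin. These were shScrambled (n = 2) with a control shRNA to no mammalian gene, shAjuba1 (n = 3) with a shRNA to the coding region of Ajuba, shAjuba2 (n = 3) with one to its non-coding region, Ajuba OE (n = 3) with an Ajuba construct driven by a CMV promoter, and Control (n = 3) with that construct after removal of its Ajuba sequence. Each condition was 1 stable line and the study describes its replicates as technical, so that p-values measure the spread between samples of a line and a change in a line cannot be told apart from an effect of deriving that line.

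Calcineurin is a calcium- and calmodulin-dependent phosphatase that removes phosphate from NFATC1 to NFATC4, upon which these factors enter the nucleus and bind DNA at a GGAAA core, often beside AP-1. Kinases such as DYRK1A, GSK3 and casein kinase 1 put the phosphate back and send the factors out of the nucleus, and RCAN1 binds and inhibits calcineurin while its own internal promoter is a known NFAT target. NFAT5 shares the DNA-binding domain but not the calcineurin control, and is known for raising transporters and chaperones when the medium is hypertonic. The pathway was first described in lymphocytes and also acts in epithelial cells, including those of colon tumors. Only RNA was measured here, so that the location and phosphorylation of the NFAT proteins are not part of these values.

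The GGAAA core was searched on both strands, where it reads TTTCC, in the 250 bases before each start site that the RefSeq promoter table (GRCh38.p14) holds, which covered 20 start sites of 6 of the 9 genes. At least 1 core was found before 8 of these start sites and none before 12, against 55.6% of all 35116 windows of that length. Of the windows of NFATC2, the only member that passed an unadjusted test in Ajuba OE, the one just before the annotated gene, chr20:51562840-51563089 on the minus strand, held 3 cores, and the one at chr20:51542720-51542969 held 0. A share of 7.12% of all windows held 3 or more. Of 6 RCAN1 windows, 1 before an internal start site held 4 cores within its 250 bases, and 1.87% of all windows held 4 or more. The other windows with a core, of NFATC1, NFATC4 and DYRK1A, held 1 each. The first 109 bases of that RCAN1 window, chr21:34526964-34527072 on the minus strand, lie in an intron of RCAN1 outside all of its annotated exons and hold 3 of the 4. These stretches are shown 5′ to 3′ because they held the most cores among the members' windows, with each core in capitals, and a match is a run of letters rather than a bound site.
NFATC2 promoter: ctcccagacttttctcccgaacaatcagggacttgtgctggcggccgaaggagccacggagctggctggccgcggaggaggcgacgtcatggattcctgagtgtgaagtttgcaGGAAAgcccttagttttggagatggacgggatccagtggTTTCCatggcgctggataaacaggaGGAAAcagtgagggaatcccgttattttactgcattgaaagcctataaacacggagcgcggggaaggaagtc
RCAN1 internal promoter: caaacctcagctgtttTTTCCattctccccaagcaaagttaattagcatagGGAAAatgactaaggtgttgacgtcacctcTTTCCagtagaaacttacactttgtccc
The counts pool all start sites of a gene, and the RCAN1 values below therefore do not separate transcripts from the internal start site from the others.

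The 16 libraries held 30132396 to 69684675 counted read pairs. AJUBA, the targeted gene, was at 47.3 to 53.5 RPM (the count scaled to the library total) in shAjuba1, 57.1 to 68.6 RPM in shAjuba2 and 81.6 to 100.5 RPM in the 3 lines without an Ajuba-directed construct, and at 462 to 566 RPM in Ajuba OE. The log2 fold change of AJUBA against shScrambled was -0.73 in shAjuba1 (SE 0.0834, edgeR adjusted p = 2.19e-05) but missed the threshold in shAjuba2 (-0.46, SE 0.131, edgeR adjusted p = 0.0773). In shAjuba2 AJUBA was called lower against Parental (-0.60, edgeR adjusted p = 0.0364) and against Control (-0.63, edgeR adjusted p = 0.0246). All 9 colon epithelium markers were detected and 7 of them reached 1 RPM in every sample, with a summed level of 2901 to 7008 RPM. The 6 lymphocyte markers summed to 0.514 to 1.49 RPM, CD2 and MS4A1 were at 0 throughout, and the fibroblast and endothelium markers summed to 5.76 to 26.8 RPM and 2.24 to 5.39 RPM. The endothelium sum was highest in shScrambled, but its markers went in opposite directions. Against shScrambled VWF was called lower by edgeR in shAjuba1 and shAjuba2 (log2 fold changes -1.30 and -1.25). PECAM1 was called higher in both (2.49 and 2.47), and CDH5 did not pass the filter. The fibroblast sum reached its highest values in shAjuba2, at 16.9 to 26.8 RPM. The part of these markers in the differences between lines was not tested.

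All 9 genes were detected in every sample, with between 86 counts (NFATC1 in a Control sample) and 22109 counts (NFAT5 in a shScrambled sample). Levels can be compared between genes only per length, and on the scale of RPM per kb of annotated exon the mean of a line was highest for NFAT5, between 15.3 and 21.9. The catalytic subunits lay at 4.95 to 7.85 for PPP3CA and 4.57 to 8.10 for PPP3CB. DYRK1A lay at 3.44 to 5.66, above PPP3CB in shAjuba2, and NFATC2 at 2.82 to 5.29. Among the calcineurin-dependent factors NFATC2 had the highest mean per length in 5 of the 6 lines, whereas in Parental NFATC3 was above it (3.35 against 3.04). NFATC3 lay at 1.92 to 3.35, NFATC4 at 0.998 to 2.56 and NFATC1 at 0.307 to 0.601, while RCAN1 lay at 1.83 to 2.65. NFAT5 made up a median of 66.3% of the NFAT transcripts per length, with a range of 60.01% to 75.5% over the 16 samples. NFATC2 made up a median of 43.9% of the sum of NFATC1 to NFATC4, with a range of 35.8% to 56.0%.

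**Figure D1:**
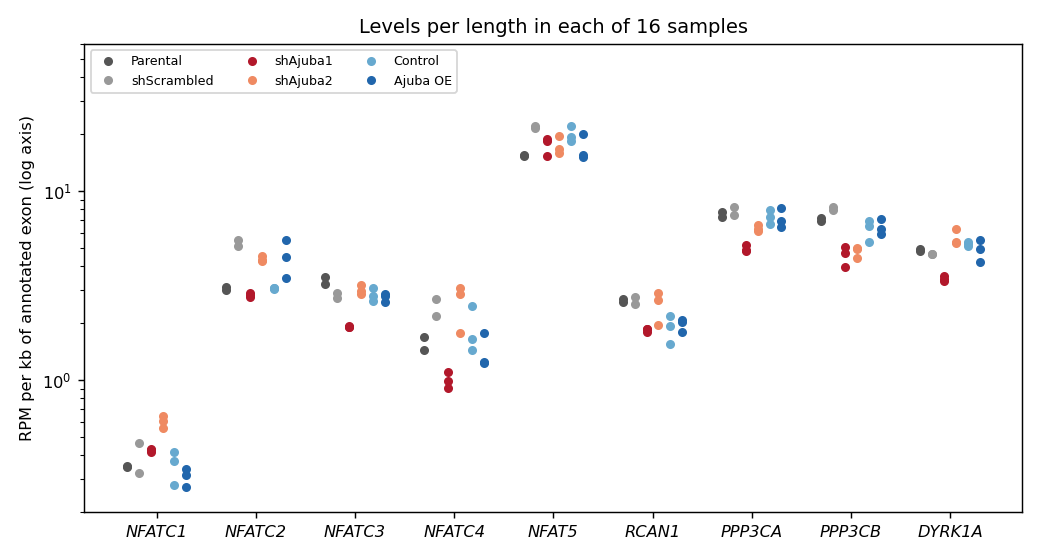
Level of each of the 9 genes in each of 16 samples, in RPM per kb of annotated exon on a log axis, with 1 point per sample and the colour giving the line. NFAT5 lies highest, with line means of 15.3 to 21.9, and NFATC1 lowest, with line means of 0.307 to 0.601.

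The comparison across all 6 lines asked whether any line differed. By the quasi-likelihood F test of edgeR (Benjamini-Hochberg adjusted) 8 of the 9 genes differed among the lines, beside 45.7% of the 23597 genes tested. The smallest adjusted p-values were those of NFATC3 (7.06e-05), NFATC2 (1.02e-04) and PPP3CB (1.77e-04), all by edgeR. NFAT5 did not pass (edgeR adjusted p = 0.108). In 7 of the 9 genes shAjuba1 had the lowest mean of the 6 lines, the others being NFATC1, lowest in Ajuba OE, and NFAT5, lowest in Parental. The ratio of the highest to the lowest line mean, on the RPM scale, ran from 1.43 for NFAT5 to 2.56 for NFATC4. With the lines of each gene placed in order of their means, 33 of the 45 neighbouring pairs of lines had overlapping RPM ranges, and 12 did not. Neither the lowest line nor these overlaps were counted over all genes tested, so that both counts only describe the 9 genes.

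**Figure D2:**
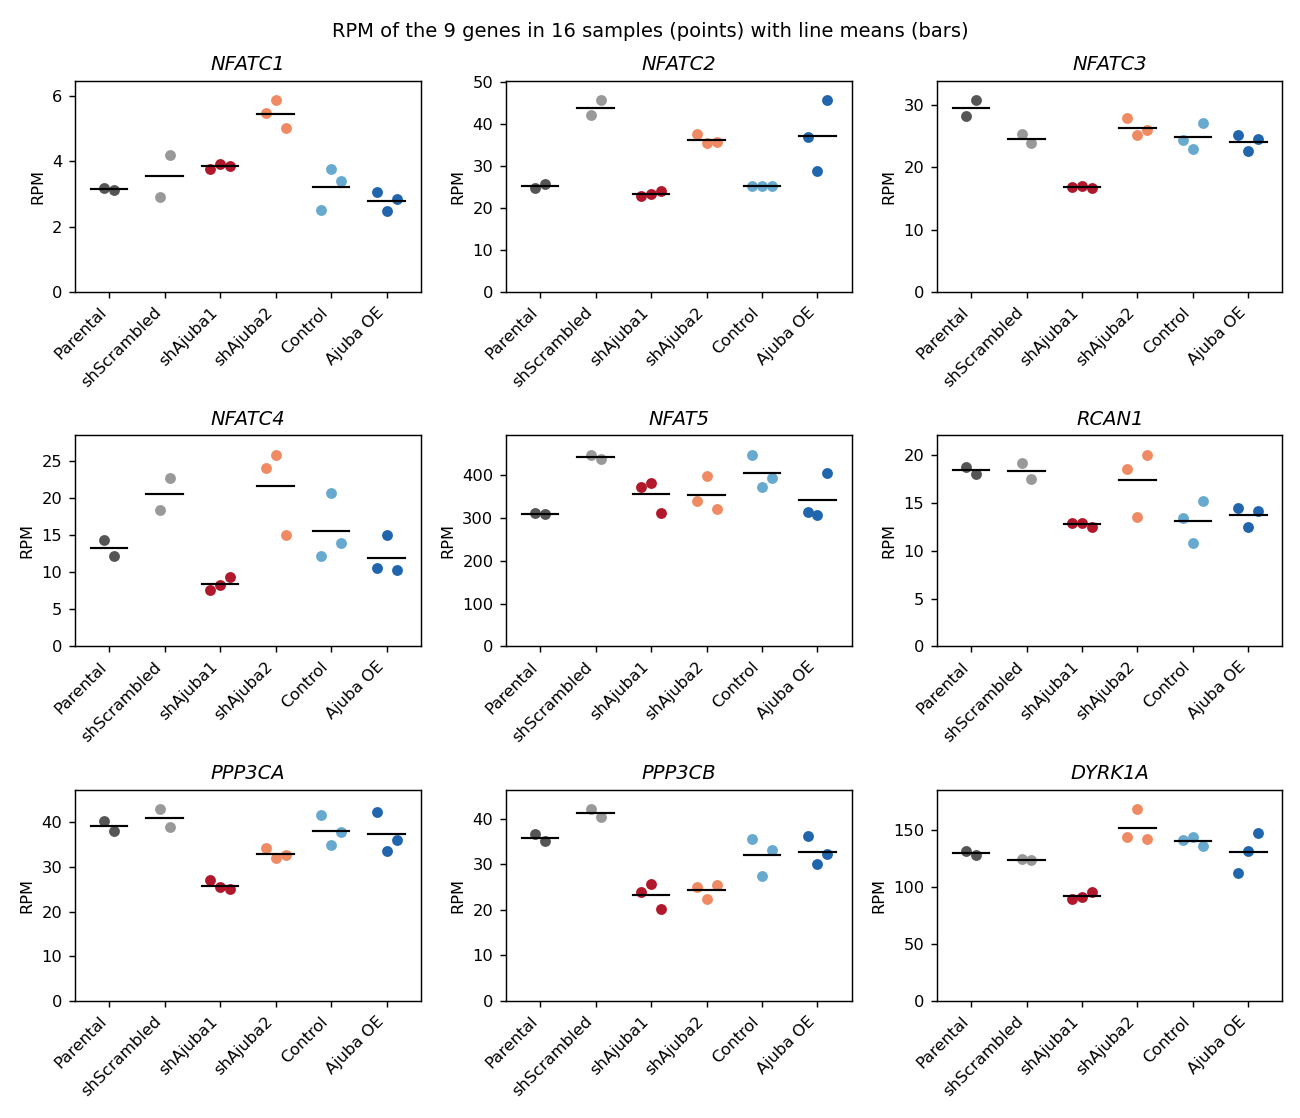
RPM (linear axis from 0) of the 9 genes, with 1 panel per gene, 1 point per sample and a bar at the mean of each of the 6 lines. shAjuba1 is the lowest line in 7 panels, PPP3CB is low in both knockdown lines, and NFATC2 is high in shScrambled, shAjuba2 and Ajuba OE.

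Knockdown with shAjuba1 was compared with shScrambled, the line with the control shRNA. The factors NFATC2, NFATC3, NFATC4 and NFAT5, the inhibitor RCAN1, both catalytic subunits and DYRK1A were all lower in shAjuba1, and NFATC1 was not called. In this comparison 8 of the 9 genes were thus called (edgeR quasi-likelihood test, Benjamini-Hochberg adjusted p under 0.05), all of them lower, while 38.4% of the 21082 genes tested were called, 18.2% higher and 20.2% lower. The median log2 fold change of the 9 genes was -0.56, beside -0.01 over all genes tested. The RPM ranges of both lines did not overlap for 8 of the 9 genes, beside 60.1% of all genes tested. In bulk RNA, fewer cells that express a gene and less RNA of it per cell cannot be told apart.

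Among the calcineurin-dependent factors NFATC4 (chr14:24365673-24379604, plus strand, GRCh38) had the largest log2 fold change. It was at 7.64, 8.30 and 9.33 RPM in shAjuba1 and at 18.4 and 22.7 RPM in shScrambled. Every shAjuba1 sample was below every sample of the other 5 lines, of which Ajuba OE came closest at 10.5, 15.0 and 10.3 RPM. Against shScrambled the log2 fold change was -1.31 (SE 0.120, edgeR adjusted p = 3.70e-06).

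NFATC2 (chr20:51386957-51562831, minus strand) shares roles with NFATC1 in lymphocytes and has been tied to invasion in carcinoma cells. It was at 22.8, 23.4 and 23.99 RPM in shAjuba1 and at 42.2 and 45.6 RPM in shScrambled. The groups were far apart, with a log2 fold change of -0.92 (SE 0.0874, edgeR adjusted p = 4.73e-06). Parental and Control were nevertheless close to shAjuba1. Parental was at 24.9 and 25.6 RPM and Control at 25.1, 25.3 and 25.3 RPM. Against Parental the log2 fold change of NFATC2 in shAjuba1 was -0.14 (edgeR adjusted p = 0.240), and against Control it was -0.12 (edgeR adjusted p = 0.341), so that the call rested on the choice of shScrambled as control.

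NFATC3 (chr16:68084751-68229259, plus strand) was at 16.9, 17.0 and 16.8 RPM in shAjuba1 and at 25.3 and 23.99 RPM in shScrambled, with a log2 fold change of -0.56 (SE 0.0930, edgeR adjusted p = 4.50e-04). Its shAjuba1 samples also lay below all samples of the other lines. Of the annotated exon bases of NFATC3 36.3% overlap other genes, of which those on the same strand reached at most 48 counts. On the opposite strand 227 bases are shared with ESRP2, which reached 3615 counts where NFATC3 reached 1753. The strand option of the counting is not given in the sources used here, and without strand the reads of these bases cannot be told apart. ESRP2 itself had a log2 fold change of 0.16 in shAjuba1 (edgeR adjusted p = 0.258).

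NFATC1 (chr18:79395856-79529325, plus strand), the least abundant factor, was at 3.77, 3.92 and 3.84 RPM in shAjuba1, inside the shScrambled samples at 2.91 and 4.19 RPM. The change was 0.08 on the log2 scale (SE 0.164, edgeR adjusted p = 0.732).

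NFAT5 (chr16:69565094-69704666, plus strand), the osmotic factor, was at 374, 382 and 312 RPM in shAjuba1 and at 447 and 439 RPM in shScrambled. The ranges did not overlap and the log2 fold change was -0.33 (SE 0.101, edgeR adjusted p = 0.0203). Its adjusted p-value was the highest of the 8, and leaving out either shScrambled sample ended it (edgeR adjusted p = 0.143 without replicate 1 and 0.0835 without replicate 2). Against Parental the direction turned, with a log2 fold change of 0.17 (edgeR adjusted p = 0.193), as the Parental samples at 313 and 309 RPM were lower than 2 of the 3 shAjuba1 samples.

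RCAN1 (chr21:34513142-34615113, minus strand), the inhibitor of calcineurin, was at 12.9, 12.9 and 12.5 RPM in shAjuba1 and at 19.2 and 17.5 RPM in shScrambled. The shAjuba1 samples lay close together below shScrambled and below Parental, which was at 18.8 and 18.1 RPM. It changed by a log2 fold change of -0.54 against shScrambled (SE 0.1000, edgeR adjusted p = 0.00105) and -0.56 against Parental (edgeR adjusted p = 8.93e-04). Control cells were at 13.4, 10.8 and 15.2 RPM, a range that contained shAjuba1, and the log2 fold change against Control was -0.05 (edgeR adjusted p = 0.814).

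PPP3CA (chr4:101023409-101348278, minus strand), the alpha isoform of the catalytic subunit, was at 27.0, 25.5 and 25.0 RPM in shAjuba1 and at 42.9 and 38.9 RPM in shScrambled. Its log2 fold change was -0.68 (SE 0.0926, edgeR adjusted p = 1.01e-04). PPP3CB (chr10:73436433-73496024, minus strand), the beta isoform, was at 23.9, 25.7 and 20.1 RPM in shAjuba1 and at 42.1 and 40.3 RPM in shScrambled. Its log2 fold change was -0.84 (SE 0.110, edgeR adjusted p = 6.90e-05), and for both subunits each shAjuba1 sample was below each sample of the 3 control lines.

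DYRK1A (chr21:37365573-37526358, plus strand), a kinase that primes NFATC factors for export from the nucleus, was at 89.3, 91.5 and 95.2 RPM in shAjuba1 and at 125 and 123 RPM in shScrambled. All other samples of the series were at 112 RPM or above, so that shAjuba1 stood apart from every other line. The change was -0.45 on the log2 scale (SE 0.0760, edgeR adjusted p = 5.44e-04).

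In shAjuba2 the same comparison with shScrambled called 1 of the 9 genes, PPP3CB, which was lower, beside 7.63% of the 22446 genes tested (3.19% higher and 4.44% lower). Of the 9 genes 5 passed at an unadjusted p under 0.05, a count that was not taken over all genes. DESeq2 called 1, beside 5.54% of the 40911 genes it tested. The RPM ranges did not overlap for 6 of the 9 genes, of which 2 were higher and 4 lower, beside 47.6% of all genes tested. The median log2 fold change of the 9 genes was -0.13, and that of all genes was -0.01.

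PPP3CB was at 25.0, 22.5 and 25.4 RPM in shAjuba2, within its shAjuba1 range and far below shScrambled. Its log2 fold change was -0.81 (SE 0.115, edgeR adjusted p = 0.00798). With 5 samples in the comparison the call did not withstand the loss of shScrambled replicate 1, shScrambled replicate 2 or shAjuba2 replicate 1 (edgeR adjusted p = 0.138, 0.122 and 0.0529), although the log2 fold change then stayed at -0.78, -0.85 and -0.81. Against Parental it was -0.62 (edgeR adjusted p = 0.0278) and against Control -0.44 (edgeR adjusted p = 0.0927).

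PPP3CA was at 34.2, 31.9 and 32.7 RPM in shAjuba2, below each shScrambled sample but not called, with a log2 fold change of -0.36 (SE 0.114, edgeR adjusted p = 0.0980). DYRK1A, at 144, 168 and 142 RPM, was above both shScrambled samples, with a log2 fold change of 0.24 (SE 0.137, edgeR adjusted p = 0.305). RCAN1 spread from 13.6 to 20.04 RPM and covered the shScrambled range, with a log2 fold change of -0.13 (edgeR adjusted p = 0.680).

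NFATC1, the factor with the lowest level, was at 5.46, 5.86 and 5.02 RPM in shAjuba2, above each sample of all other lines. It had a log2 fold change of 0.56 against shScrambled (SE 0.205, edgeR adjusted p = 0.137), 0.73 against Parental (SE 0.160, edgeR adjusted p = 0.0393) and 0.71 against Control (SE 0.1805, edgeR adjusted p = 0.0581). NFATC2 was at 37.6, 35.4 and 35.7 RPM, between shScrambled on one side and Parental and Control on the other. Its log2 fold change was therefore -0.32 against shScrambled (SE 0.113, edgeR adjusted p = 0.123), 0.46 against Parental (SE 0.110, edgeR adjusted p = 0.0484) and 0.48 against Control (SE 0.102, edgeR adjusted p = 0.0320).

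NFATC4 in shAjuba2 ranged from 14.9 to 25.8 RPM and NFATC3 from 25.2 to 27.9 RPM, and both overlapped their shScrambled ranges. Their log2 fold changes were 0.02 (SE 0.241) and 0.05 (SE 0.117). NFAT5 was at 339, 398 and 322 RPM, below both shScrambled samples, with a log2 fold change of -0.37 (SE 0.149, edgeR adjusted p = 0.166). Without shAjuba2 replicate 2, the sample at 398 RPM, 4 of the 9 genes were called (NFATC2, NFAT5, PPP3CA and PPP3CB) beside 22.7% of the 21969 genes then tested, and the log2 fold change of NFAT5 was -0.48 (edgeR adjusted p = 0.00240).

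**Figure D3:**
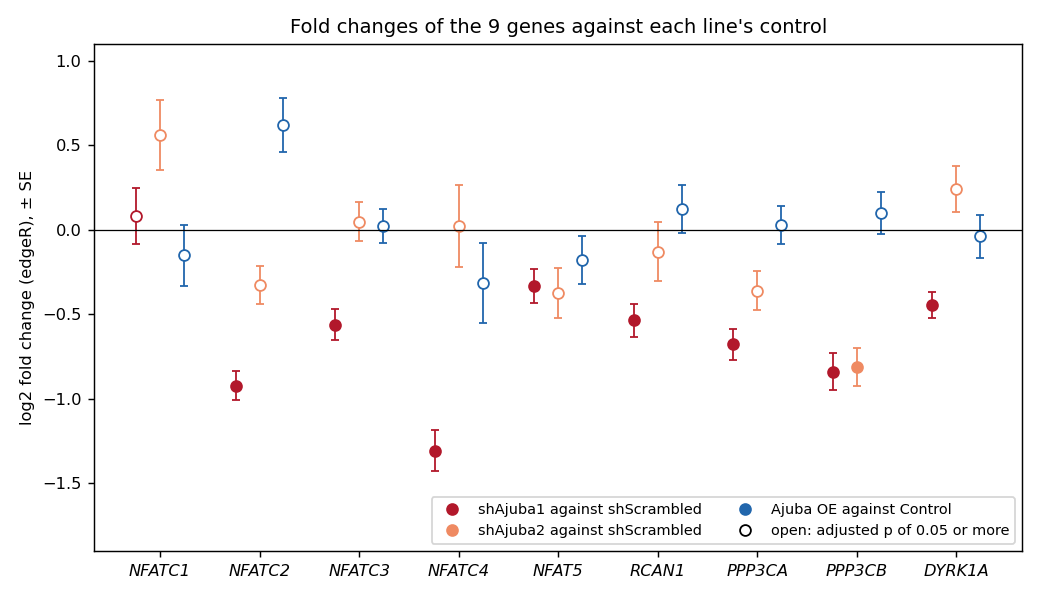
edgeR log2 fold changes with standard errors for the 9 genes in shAjuba1 and shAjuba2 against shScrambled and in Ajuba OE against Control, with filled points where the adjusted p-value was under 0.05. Of the shAjuba1 points 8 are filled, from -1.31 for NFATC4 to -0.33 for NFAT5, 1 shAjuba2 point is filled (PPP3CB at -0.81), and none of Ajuba OE is.

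The direct comparison of shAjuba1 with shAjuba2 asked whether the knockdown lines differed from each other. By edgeR (Benjamini-Hochberg adjusted) 5 of the 9 genes were lower in shAjuba1 and none higher, beside 19.6% of the 21600 genes tested (10.1% lower and 9.47% higher). NFATC4 differed by a log2 fold change of -1.31 (SE 0.202), DYRK1A by -0.67 (SE 0.115), NFATC3 by -0.59 (SE 0.107), NFATC2 by -0.58 (SE 0.102) and NFATC1 by -0.46 (SE 0.141). The calcineurin genes were not called, with PPP3CB at -0.01 (SE 0.128, edgeR adjusted p = 0.955), PPP3CA at -0.30 (SE 0.104, edgeR adjusted p = 0.0687) and RCAN1 at -0.39 (SE 0.150, edgeR adjusted p = 0.0942). NFAT5 was at 0.06 (SE 0.142, edgeR adjusted p = 0.806). Over these genes the RPM ranges of the knockdown lines did not overlap for 7, beside 39.7% of all genes tested.

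The dependence on the control line was followed through all 3 lines without an Ajuba-directed construct (Parental, shScrambled and Control, 7 samples). In shAjuba1 the same 5 genes, NFATC3, NFATC4, PPP3CA, PPP3CB and DYRK1A, were called lower by edgeR against each of the 3 control lines, beside 7.76% of the 20457 genes tested in all 3 comparisons, and none was called higher, beside 6.44%. Every shAjuba1 sample was below all 7 control samples for 6 genes, these 5 and NFATC2, beside 12.4% of all genes, and none was above them, beside 12.8%. In shAjuba2 none of the 9 genes was called by edgeR in 1 direction against each of the 3 control lines, beside 1.03% of 21403 genes called lower and 0.864% called higher. PPP3CA and PPP3CB were below all 7 control samples in shAjuba2, beside 5.25% of genes, and NFATC1 was above them, beside 9.89%. PPP3CA and PPP3CB were thus below all control samples in both knockdown lines, as were 2.39% of 20175 genes, and none was above them in both, beside 3.18%.

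**Figure D4:**
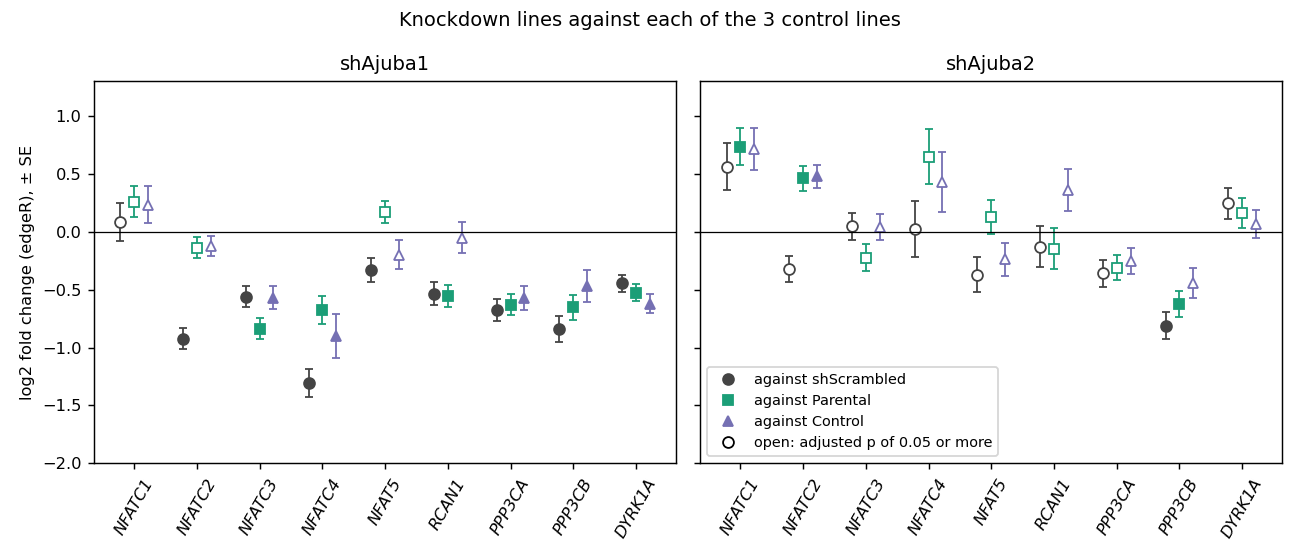
edgeR log2 fold changes with standard errors of shAjuba1 (left) and shAjuba2 (right) against shScrambled, Parental and Control, with filled symbols where the adjusted p-value was under 0.05. In shAjuba1 NFATC3, NFATC4, PPP3CA, PPP3CB and DYRK1A are below 0 and filled against all 3 control lines, whereas NFATC2 in shAjuba2 is at -0.32 against shScrambled and at 0.46 and 0.48 against Parental and Control.

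The control lines were also compared with each other. Parental against shScrambled called 4 of the 9 genes by edgeR, beside 30.7% of the 21289 genes tested (15.6% higher and 15.0% lower). The RPM ranges did not overlap for 6 of the 9, beside 65.2% of all genes. NFATC2 was lower in Parental by a log2 fold change of -0.79 (SE 0.0837, edgeR adjusted p = 1.16e-07), NFATC4 by -0.64 (SE 0.112) and NFAT5 by -0.51 (SE 0.0791), and NFATC3 was higher by 0.27 (SE 0.0881, edgeR adjusted p = 0.0231). When the spread was estimated from all 16 samples, NFATC2 alone was called. The 5 other genes, which include RCAN1, both catalytic subunits and DYRK1A, were not called, with log2 fold changes between -0.20 and 0.07.

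Control against Parental called none of the 9 genes by edgeR, beside 0.370% of the 21644 genes tested (0.0508% higher and 0.319% lower). DESeq2 called none either, beside 1.16% of the genes it tested. The RPM ranges did not overlap for 4 of the 9, beside 42.4% of all genes. At an unadjusted p under 0.05, 2 of the 9 genes passed, a count that was not taken over all genes. NFAT5 had a log2 fold change of 0.39 (SE 0.124, edgeR adjusted p = 0.177) and RCAN1 one of -0.48 (SE 0.155, edgeR adjusted p = 0.182).

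Overexpression of Ajuba was compared with Control. None of the 9 genes was called by edgeR, beside 5.43% of the 21140 genes tested (2.39% higher and 3.03% lower). At an unadjusted p under 0.05, 1 passed, a count that was not taken over all genes. DESeq2 called 1, beside 3.82% of the 41178 genes it tested. In each case the gene was NFATC2. It was at 37.0, 28.8 and 45.6 RPM in Ajuba OE and at 25.1, 25.3 and 25.3 RPM in Control, so that each Ajuba OE sample was above each Control sample, with a wide spread among them. The difference was 0.62 on the log2 scale (SE 0.158, edgeR adjusted p = 0.0732), and 0.66 by DESeq2 (DESeq2 adjusted p = 0.0110). Without Ajuba OE replicate 2, the lowest of the 3, it was 0.76 (edgeR adjusted p = 0.0181). NFATC2 was not called by edgeR when any other single sample of either line was left out. NFATC2 was the only gene of the 9 whose RPM ranges did not overlap, beside 25.4% of all genes tested. Its shScrambled samples, at 42.2 and 45.6 RPM, and its shAjuba2 samples, at 35.4 to 37.6 RPM, lay within the Ajuba OE range. With Parental as control none of the 9 genes was called in Ajuba OE by edgeR, beside 7.15% of all genes tested.

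The other 8 genes had log2 fold changes in Ajuba OE between -0.32 for NFATC4 (SE 0.236) and 0.12 for RCAN1 (SE 0.143). PPP3CA at 42.3, 33.7 and 36.0 RPM and PPP3CB at 36.2, 30.04 and 32.2 RPM overlapped their Control ranges. DYRK1A spread from 112 to 148 RPM around its Control samples, at 141, 144 and 136 RPM.

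The summed level of the catalytic subunits PPP3CA, PPP3CB and PPP3CC, in RPM per kb of exon, was 17.6 ± 0.676 in shScrambled (SD, n = 2) and 16.6 ± 0.440 in Parental (SD, n = 2). It was 15.5 ± 1.66 in Control and 15.4 ± 1.75 in Ajuba OE (SD, n = 3 each). The knockdown lines were lower, at 12.8 ± 0.910 in shAjuba2 and 10.8 ± 0.693 in shAjuba1 (SD, n = 3 each). Within this sum PPP3CB made up 45.9% ± 0.361 in shScrambled (SD, n = 2) and 42.6% ± 0.0970 in Parental (SD, n = 2). It made up 37.3% ± 0.296 in shAjuba2 and 42.0% ± 2.68 in shAjuba1 (SD, n = 3 each), so that the beta isoform had its lowest share in shAjuba2 while the total was lowest in shAjuba1.

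The genes around calcineurin and NFAT were taken as 57 further genes in 5 lists. In shAjuba1 26 of the 50 that were tested were called by edgeR, 8 higher and 18 lower, a share to be read against the 38.4% of all genes. In shAjuba2 6 of 49 were called, 3 in each direction, beside 7.63% of all genes, and in Ajuba OE 4 of 49, all lower, beside 5.43%. The median log2 fold change of these genes was -0.06, 0.02 and 0.02 in these comparisons, beside -0.01 for all genes tested in each. The counts of each list below are to be read against the same 3 shares.

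Of the 12 calcineurin partners, 5 were called in shAjuba1 and all were lower, with a list median of -0.16. AKAP5, the scaffold that holds calcineurin at the membrane, had a log2 fold change of -1.61 (SE 0.126, edgeR adjusted p = 9.64e-07). The RCAN1 relatives RCAN3 and RCAN2 had log2 fold changes of -0.88 (SE 0.112, edgeR adjusted p = 5.79e-05) and -1.36 (SE 0.241, edgeR adjusted p = 7.19e-04). The other 2 were PPP3CC, the remaining catalytic subunit (-0.36, edgeR adjusted p = 0.0447), and FKBP1A, the binding protein of the calcineurin-blocking drug tacrolimus (-0.30, edgeR adjusted p = 0.0151). AKAP5, RCAN3 and PPP3CC were also called lower against Parental and against Control. RCAN2 was called against Parental but not against Control (-0.77, edgeR adjusted p = 0.0768), and FKBP1A against neither (-0.13 and 0.10, edgeR adjusted p = 0.251 and 0.638). RCAN2 was called in all 3 comparisons, as the 1 called partner in shAjuba2 (log2 fold change 1.12, SE 0.248, edgeR adjusted p = 0.0369) and in Ajuba OE (-1.67, SE 0.319, edgeR adjusted p = 0.0259), at 12 to 222 counts per sample. In shAjuba2 its call was lost against Parental (0.61, edgeR adjusted p = 0.113).

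Of the 8 further NFAT kinases, 7 were tested and 2 were called in shAjuba1, where the list median was 0.19. CSNK1D, a casein kinase that phosphorylates NFATC factors, was higher by 0.59 (SE 0.103, edgeR adjusted p = 5.97e-04), and GSK3B, an export kinase like DYRK1A, was lower by a log2 fold change of -0.43 (SE 0.0788, edgeR adjusted p = 9.66e-04). GSK3B was also called lower against Parental and Control, but CSNK1D was not called against Control (0.33, edgeR adjusted p = 0.133). Exons of CSNK1D overlap SLC16A3 on the opposite strand. No kinase was called in shAjuba2 or in Ajuba OE.

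Of the 13 genes of calcium release and store-operated entry, 8 were called in shAjuba1, 3 higher and 5 lower, with a list median of -0.04. The calcium channel genes ORAI1 and ORAI3 moved in opposite directions against shScrambled. ORAI3 had a log2 fold change of -0.75 (SE 0.127, edgeR adjusted p = 4.90e-04) and ORAI1 one of 0.69 (SE 0.129, edgeR adjusted p = 0.00105). ITPR3, a calcium release channel of the endoplasmic reticulum, was at 0.54 (SE 0.105, edgeR adjusted p = 0.00135). ORAI1 was called higher against each control line, but ORAI3 was called against neither Parental (-0.16, edgeR adjusted p = 0.383) nor Control (-0.27, edgeR adjusted p = 0.190). The call of ITPR3 was lost against Control (0.36, edgeR adjusted p = 0.156). In shAjuba2 the calcium pump gene ATP2A3 was the 1 called gene (0.63, SE 0.137, edgeR adjusted p = 0.0347), which was not called against Parental (0.52, edgeR adjusted p = 0.0566), and none was called in Ajuba OE by edgeR.

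Of 15 known NFAT target genes 9 were tested in shAjuba1, since IL2, IL4, IFNG, CD40LG, ENPP2 and GPC6 did not pass the filter on low counts. There 5 were called, 3 higher and 2 lower, and those called went in opposite directions. PTGS2, which encodes cyclooxygenase-2, was at 0.166 to 0.232 RPM in shAjuba1 and at 1.41 to 1.51 RPM in shScrambled, with a log2 fold change of -2.97 (SE 0.279, edgeR adjusted p = 4.41e-06). The cytokine gene CSF2 had a log2 fold change of -1.09 (SE 0.132, edgeR adjusted p = 3.97e-05), but was not called against Parental or Control. TNF had one of 3.15 (SE 0.390, edgeR adjusted p = 4.47e-05), from 2 and 7 counts in shScrambled to 31 to 40 counts in shAjuba1. In shAjuba2 EGR2 was called, with a log2 fold change of 1.21 (SE 0.271, edgeR adjusted p = 0.0381), but it was not called against Parental (0.90, edgeR adjusted p = 0.0635) and turned to -0.45 against Control (edgeR adjusted p = 0.325). In Ajuba OE PTGS2 was called again and lower, with -3.12 (SE 0.311, edgeR adjusted p = 0.00157), at 0.226 to 0.387 RPM beside 2.16 to 3.79 RPM in Control, as was LCN2, with -1.09 (SE 0.158, edgeR adjusted p = 0.00806).

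The 9 osmotic stress genes known as NFAT5 targets had a median log2 fold change of -0.58 in shAjuba1 and -0.52 in shAjuba2, beside -0.01 for all genes tested in each, and 0.09 in Ajuba OE. Both knockdown medians were taken against shScrambled and were not computed against Parental or Control. Parental against shScrambled called 7 of these 9 genes by edgeR, 3 higher and 4 lower, beside 30.7% of all genes tested. In shAjuba1 6 were called, 5 lower and 1 higher. The taurine transporter gene SLC6A6 had a log2 fold change of -1.51 (SE 0.0770, edgeR adjusted p = 3.12e-08), the inositol transporter gene SLC5A3 one of -1.18 (SE 0.104, edgeR adjusted p = 2.44e-06) and the chaperone gene HSPA4L one of -0.79 (SE 0.0973, edgeR adjusted p = 4.25e-05). The betaine transporter gene SLC6A12 was the exception at 1.19 (SE 0.254, edgeR adjusted p = 0.00271). In shAjuba1 HSPA4L was also called lower by edgeR against Parental (-0.82) and Control (-0.76). In shAjuba2 3 were called, all lower, namely SLC6A6 (-1.35, SE 0.121, edgeR adjusted p = 0.00144), SLC5A3 (-0.94, SE 0.141, edgeR adjusted p = 0.0101) and SLC6A12 (-1.53, SE 0.342, edgeR adjusted p = 0.0379). In Ajuba OE SLC6A6 was the 1 called gene (-0.45, SE 0.0996, edgeR adjusted p = 0.0457).

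The transporters behaved differently when the control line was changed. SLC5A3 was at 644 to 774 RPM in shAjuba1, 808 to 894 RPM in shAjuba2 and 1309 to 2072 RPM in the 7 control samples. It was called lower in both knockdown lines against each of the 3 control lines, with log2 fold changes from -1.19 to -0.68. A few of its exon bases are shared with MRPS6 on the same strand, whose log2 fold change was -0.32 in shAjuba1 (SE 0.113) and -0.58 in shAjuba2 (SE 0.184). SLC6A6, by contrast, was at 478 and 481 RPM in shScrambled but at 190.3 to 224 RPM in Parental and Control. Its log2 fold change in shAjuba1 shrank to -0.26 against Parental (edgeR adjusted p = 0.0169) and to -0.30 against Control (edgeR adjusted p = 0.0455), and in shAjuba2 it was no longer called (-0.10 and -0.13, edgeR adjusted p = 0.571 and 0.534). SLC6A12 was called higher in shAjuba1 against each control line, whereas in shAjuba2 its call was lost against Parental (-0.29, edgeR adjusted p = 0.558) and Control (-0.33, edgeR adjusted p = 0.638). The highest line mean of SLC6A6 was in shScrambled, as was that of NFAT5 (443 RPM). The NFAT5 mean was 405 RPM in Control and 311 RPM in Parental, whose SLC6A6 samples lay together at 190.3 to 224 RPM. A link between the levels of the 2 genes was not tested.

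**Figure D5:**
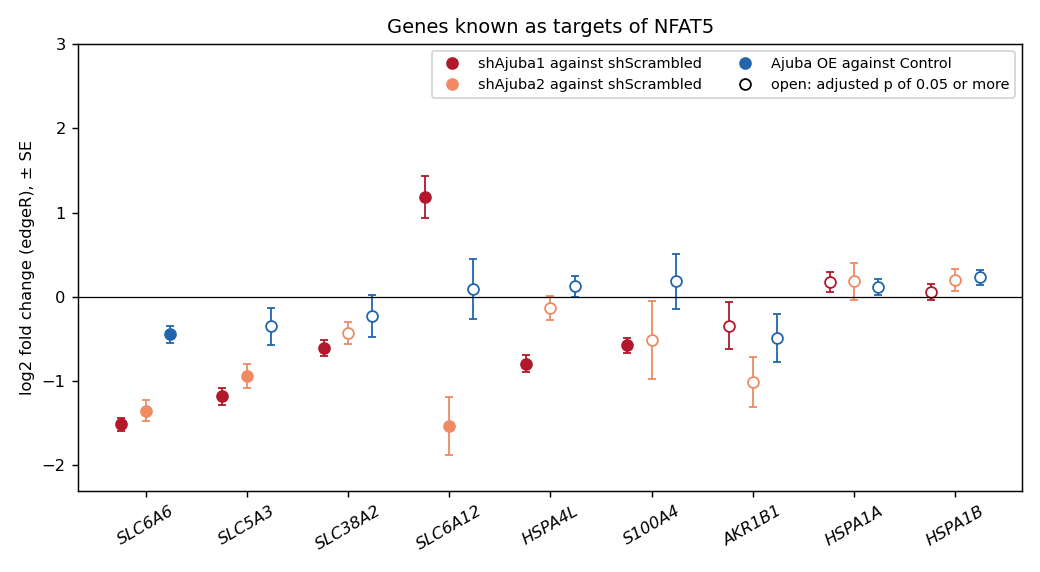
edgeR log2 fold changes with standard errors for the 9 osmotic stress genes in shAjuba1 and shAjuba2 against shScrambled and in Ajuba OE against Control, with filled points where the adjusted p-value was under 0.05. SLC6A6 and SLC5A3 are filled and lower in both knockdown lines, and SLC6A12 lies at 1.19 in shAjuba1 and at -1.53 in shAjuba2.

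As a description over the 16 samples, which come from only 6 lines, the genes whose log2 level was most like that of NFATC2 were ASAP2 (Pearson r = 0.909), COL6A3 (0.894) and ACSL5 (0.893), out of 23597 genes. For RCAN1 they were CPPED1 (Pearson r = 0.931), TBC1D7 (0.908) and CCDC69 (0.890). None of the other 8 genes was among these first 3 for either query.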

How the data were processed

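RNA of all 16 samples was prepared by the authors as stranded mRNA libraries, sequenced as read pairs, aligned to GRCh38 (hg38) with HISAT2 and counted on exons with featureCounts. They deposited raw counts per Ensembl gene, not normalized. Tool versions, strand option and annotation release are not given in the sources used here. Samples were grouped by the line in their titles. Of 66023 identifiers 56434 were in the symbol table and 41164 had a symbol of their own.

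RPM is the count divided by the total count of the sample, times 1e+06. RPM per kb divides by the union of GENCODE exons. Total counts were 30132396 to 69684675, and this depth limits only the lowest genes. Replicates of a line differed by more than sampling noise (chi-square 1.87 to 14.3 times that expected, over 14 pairs and genes with 20 or more counts), so that each was kept.

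Each pair of lines was fitted on its own by the quasi-likelihood test of edgeR (TMM, two-sided, filterByExpr by line, Benjamini-Hochberg adjustment over all genes tested, threshold 0.05), using edgeR 4.0.16 and limma 3.58.1 in R 4.3.3, with DESeq2 1.42.0 as an alternative. Figures used matplotlib 3.10.9 and pandas 2.3.3 under Python 3.11.15. Standard errors were taken as the size of the log2 fold change over the root of its F value. The fits were also run on simulated data with 200 changed genes. There all genes had the same fixed spread, so that the run cannot speak to the replicate differences given above. Likeness was taken on log2 CPM with a prior count of 2.

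The 9 genes and all lists were chosen with earlier results of these data known. Of each list, besides all 9 members and AJUBA, the called genes with the smallest adjusted p-values, up to 3 per comparison, are named. PPP3CC, FKBP1A, SLC6A12 in shAjuba1 and the overlapping genes ESRP2, MRPS6 and SLC16A3 were added after their values were seen. So were Control as a control for the knockdown lines and the counts over all 3 control lines. Same-numbered replicates were not taken as pairs, as explained with the alternatives. Those were other normalizations, DESeq2, all 16 samples in 1 fit, other filters, other control lines, a replicate block and leaving out each sample.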

Additional observations from a re-analysis of the deposited data

Results flagged for a closer look

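The effects of shAjuba1 and shAjuba2 share the shScrambled control, and 5 of the 9 genes stood out because the direct test between the knockdown lines found them different. By edgeR (Benjamini-Hochberg adjusted over all genes) shAjuba1 was lower than shAjuba2 by a log2 fold change of -1.31 for NFATC4 (adjusted p = 0.00201), -0.67 for DYRK1A (adjusted p = 0.00342), -0.59 for NFATC3 (adjusted p = 0.00441), -0.58 for NFATC2 (adjusted p = 0.00385) and -0.46 for NFATC1 (adjusted p = 0.0481). For all 5 each shAjuba1 sample was below each shAjuba2 sample. AJUBA itself was at 47.3 to 53.5 RPM in shAjuba1 and at 57.1 to 68.6 RPM in shAjuba2, and its part in these differences was not tested. The call of NFATC1 was lost under DESeq2 (DESeq2 adjusted p = 0.0654), when all genes with at least 1 count were tested (edgeR adjusted p = 0.0858), with a replicate block (edgeR adjusted p = 0.103), and when any of shAjuba1 replicates 1 to 3 or shAjuba2 replicates 1 and 2 was left out (edgeR adjusted p from 0.0501 to 0.183).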

How the results depend on the processing

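Among the recomputed fold changes of the 9 genes, 620 kept their direction and side of the threshold, 25 lost a call, 21 gained one, 42 without a call changed sign and 3 turned against a call: NFAT5 in shAjuba1 with Parental as control (0.17), and NFATC2 in shAjuba2 with Parental (0.46) or Control (0.48) as control. The number of the 9 genes called in shAjuba1 fell from 8 to 5 with Control as control, beside 38.4% and 25.2% of all genes tested. In shAjuba2 it went from 1 (7.63% of all genes) to 3 with all 16 samples in the fit (15.6%) and 3 with Parental as control (8.14%). In Ajuba OE it went from 0 (5.43%) to 1 with DESeq2 (3.82%), with every gene of at least 1 count (3.22%), with all 16 samples (10.1%), or without replicate 2 of both lines (8.18%). In Parental against shScrambled it went from 4 (30.7%) to 1 with all 16 samples (7.19%), and in Control against Parental from 0 (0.370%) to 1 (RCAN1) with every gene with at least 1 count (4.81%). Next, 1 sample of a line of 3 was left out at a time. This gave 8 of the 9 genes in shAjuba1 (31.4% to 45.4% of all genes) and 0 to 4 in shAjuba2 (2.24% to 22.7%). It gave 0 to 1 in Ajuba OE (1.89% to 4.57%) and 4 to 6 between the knockdown lines (9.83% to 26.9%). In Control against Parental it gave 0 to 1 (NFAT5 without Control replicate 2), beside 0.0847% to 4.73%. Fits of a pair that left 1 sample in a line were kept out of these counts. Across the 6 lines, leaving out any 1 of the 16 samples gave 7 to 9 of the 9 genes. In those fits 8991 to 11649 genes were called of 23402 to 24933 tested. The count of the 57 further genes called in shAjuba1 (26) was 17 with all 16 samples, beside 23.2% of all genes. In shAjuba2 (6) it was 11 with DESeq2 (5.54%), 18 with all 16 samples (15.6%), 15 with every gene of at least 1 count (7.85%) and 3 with Parental (8.14%), and in Ajuba OE (4) it was 9 with Parental (7.15%). Leaving out 1 sample gave 19 to 31, 1 to 22 and 2 to 4, the 22 being without shAjuba2 replicate 2. The causes of these shifts were not tested.

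Same-numbered replicates were not taken as pairs because the mean correlation of their deviations was low. It was -0.00521 (shAjuba1), 0.129 (shAjuba2) and 0.185 (Ajuba OE, -0.0492 to 0.505 over 3 pairs), each with its control. In shAjuba2, Control and Ajuba OE alike, replicate 2 was nevertheless lowest for NFATC3, RCAN1, PPP3CA and PPP3CB and highest for NFATC4. In shAjuba1 replicate 2 took none of these places, and NFATC1, NFATC2, NFAT5 and DYRK1A had no such shared order. A shared effect of replicate number in those 3 lines was not tested. With a replicate block the fits of shAjuba1, shAjuba2 and Ajuba OE called 8, 2 and 2 of the 9 genes and 30, 23 and 13 of the further genes. Of all genes tested they called 42.0%, 5377 of 22446 genes and 24.3%, beside 38.4%, 7.63% and 5.43% without the block. Between the knockdown lines the fit with a replicate block called 4 of the 9, without NFATC1, beside 13.6%.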
